A study of Homo sapiens with 6 samples.

Results

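The genes described here encode SR proteins, heterogeneous nuclear ribonucleoproteins (hnRNPs) and the factors closest to them in splicing: TRA2A, TRA2B, SRRM1, SRRM2, U2AF1, U2AF2, 3 polypyrimidine tract-binding (PTB) proteins and 6 kinases that phosphorylate SR proteins. Earlier results of these data were known when these genes were chosen. The choice went by name. It took every protein-coding gene whose symbol starts with SRSF and a number or with HNRNP. It added the 15 genes listed by name and left out readthrough genes. This gave 53 of the 58825 genes in the table, of which 48 had enough counts to be tested. The other 5 (SRSF12 and HNRNPCL1 to HNRNPCL4) had 0 counts in every library, which allows up to 3 fragments, or 0.152 to 0.236 CPM depending on the library, where CPM is the usual scaling of counts to a common library size.

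SKOV3, a human ovarian cancer cell line, was transfected with a negative control siRNA (NC, 3 libraries) or with an siRNA against EIF5A2 (si-EIF5A2, 3 libraries), and mRNA was sequenced 48 h later. EIF5A2 is a paralog of the translation factor EIF5A. Both groups are this 1 line. Nothing in the sample descriptions says that the 3 libraries of a group came from separate cultures, so p-values measure the spread between these libraries, which may be technical. Differences between the groups are given as log2FC, the log2 of the fold change of si-EIF5A2 over NC, with its standard error (SE). Adjusted p-values come from the quasi-likelihood test of edgeR and were corrected by Benjamini-Hochberg over the 16208 genes tested. Rose and fell are used for an adjusted p under 0.05, and called for genes that also changed by more than 1.5-fold.

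SR proteins carry RNA recognition motifs and a tail rich in arginine and serine, bind exons and help the U1 and U2 particles to recognize the splice sites beside them. HnRNPs coat nascent transcripts, and many of them, such as HNRNPA1 and the PTB proteins, favor the skipping of exons near their binding sites. SRPK1 and SRPK2 phosphorylate the tail of SR proteins in the cytoplasm and allow their import, and the CLK kinases phosphorylate it further in the nucleus.

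The totals lay between 46900204 and 74142267 counts per library. Low values piled up at multiples of 3.68 to 3.71 counts, so the depth was closer to 12692883 to 20065566 fragments. EIF5A2 fell from 29.1 to 3.69 CPM on average (log2FC -2.98, SE 0.18, adjusted p = 1.60e-05). Libraries of 1 group correlated with r between 0.964 and 0.974, and libraries of different groups between 0.929 and 0.938. The epithelial genes KRT8, KRT18 and ERBB2 were present in every library, with ERBB2 between 42.1 and 48.6 CPM, whereas KRT19 and CD24 were low, at no more than 5.11 CPM. Of the leukocyte markers reported, PTPRC and CD3E were at 0 in every library and CD68 lay between 28.97 and 57.3 CPM. The 3 endothelial markers summed to 1.94 to 2.37 CPM in NC and 0 to 1.001 CPM in si-EIF5A2, and the 4 fibroblast markers to 0.872 to 1.41 and 0.782 to 3.00 CPM.

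After EIF5A2 knockdown the splicing factor genes moved by small amounts, and more of them downward than upward. Of the 48 genes tested, 5 (10.4%) were called, compared with 24.6% of all genes tested. All 5 were lower in the si-EIF5A2 libraries, so 10.4% of the 48 genes were called as lower, compared with 13.6% of all genes tested. They are the kinase gene CLK3, the SR-related genes SRRM1 and TRA2A, and the hnRNP genes HNRNPUL1 and HNRNPA0. No splicing factor gene was called as higher, against 11.1% of all genes. That count was also 0 at an unadjusted p under 0.05 with the same fold limit, and 0 with DESeq2.

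Without the limit on the fold change, 24 of the 48 genes (50%) changed, compared with 36.9% of all genes tested. Of the 48 genes tested, 16 fell and 8 rose, whereas 18.9% of all genes tested fell and 18.0% rose. The log2FC values had a median of -0.18, with quartiles of -0.40 and 0.09, and the median over all genes tested was -0.01. In 41 of the 48 genes (85.4%) the fitted change was within 1.5-fold, compared with 61.0% of all genes. The CPM ranges of the groups did not overlap in 29 genes (60.4%), beside 51.2% of all genes. These genes are abundant, with a median of 93.8 CPM against 13.2 CPM for all genes tested, and the part of abundance in these shares was not tested. Transcript counts of all 53 genes together made up 8238 ± 365 CPM in NC, against 7237 ± 115 CPM in si-EIF5A2 (SD, n = 3 each), which is 87.8% of the NC level. In bulk libraries like these, less RNA per cell and fewer cells of a kind cannot be told apart.

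**Figure D1:**
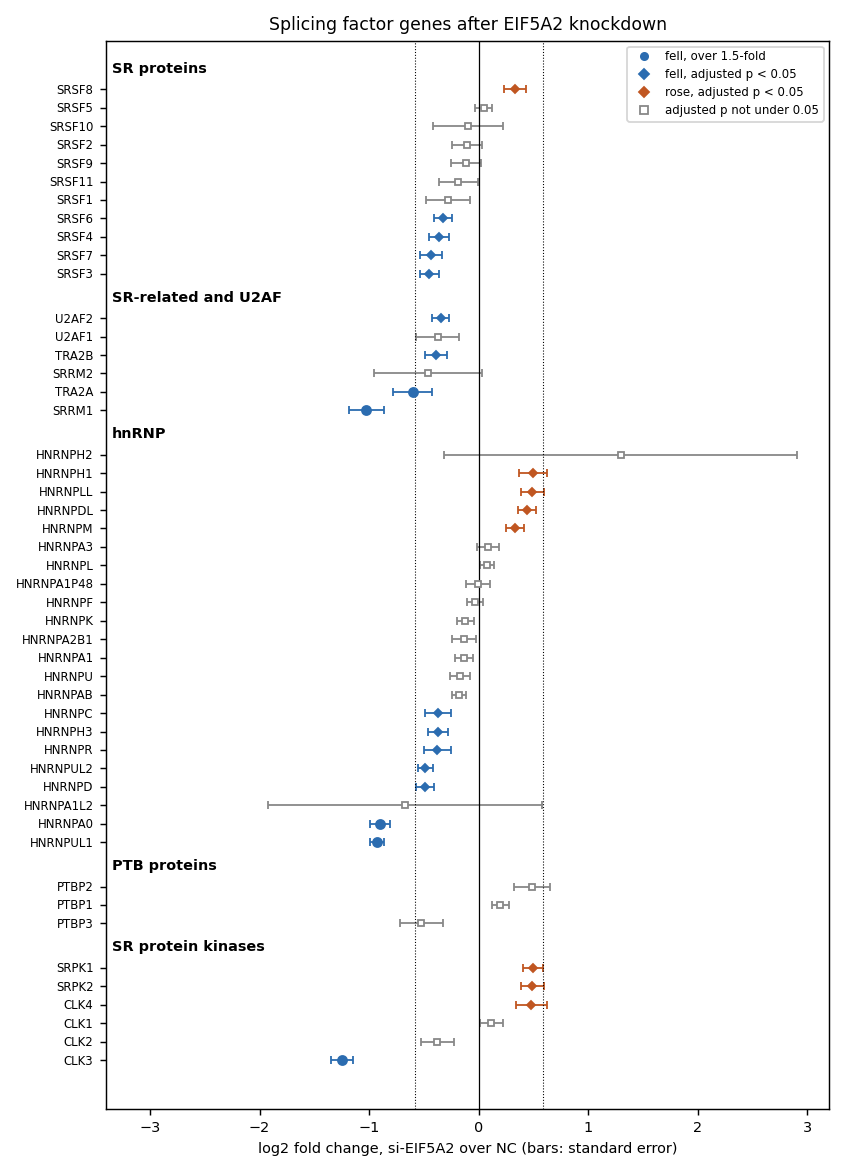
Log2 fold change (log2FC, si-EIF5A2 over NC) of the 48 splicing factor genes tested, grouped by role, with bars for the SE. Dotted lines mark a 1.5-fold change. The 5 filled circles on the left (CLK3, SRRM1, HNRNPUL1, HNRNPA0, TRA2A) are the genes called, diamonds are the other genes with an adjusted p under 0.05, and open squares are the rest. HNRNPH2 and HNRNPA1L2 have the widest bars.

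**Figure D2:**
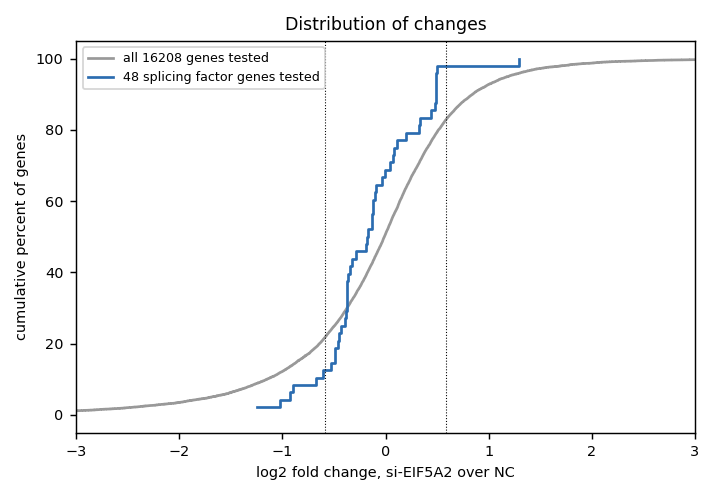
Cumulative percent of genes (y axis) at or below each log2FC (x axis, si-EIF5A2 over NC) for all 16208 genes tested (gray) and for the 48 splicing factor genes (blue), drawn from -3 to 3, with dotted lines at a 1.5-fold change. The blue curve is steeper, with 41 of 48 genes between the dotted lines, and its median of -0.18 lies left of the gray curve's -0.01.

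The promoters of 4 of the genes that fell are shown in part, because these genes stand for 3 of the role classes and have upstream bases that no annotated exon covers. The sequences are from RefSeq (GRCh38.p14) and are written 5′ to 3′ on the strand of the gene. Each is the stretch of 100 bases nearest to a RefSeq transcription start that no GENCODE 29 exon covers. The stretch of SRRM1 (chr1:24643459-24643558, plus strand) ends at the start, and that of SRSF3 (chr6:36594253-36594352, plus strand) ends 9 bases before it. The stretch of HNRNPA0 (chr5:137754377-137754476, minus strand) ends 13 bases before the start, and that of HNRNPUL1 (chr19:41264231-41264330, plus strand) ends 41 bases before it. Those of SRRM1 and HNRNPUL1 lie inside the longer span that GENCODE gives these genes. Capitals mark CCAAT, read on either strand (ATTGG is its complement), and TATAAA, and the second run of capitals in HNRNPUL1 holds overlapping matches on both strands.
SRRM1: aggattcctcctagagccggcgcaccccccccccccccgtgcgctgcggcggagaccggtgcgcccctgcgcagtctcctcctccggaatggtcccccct
HNRNPUL1: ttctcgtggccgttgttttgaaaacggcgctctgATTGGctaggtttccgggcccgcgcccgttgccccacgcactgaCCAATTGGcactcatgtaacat
HNRNPA0: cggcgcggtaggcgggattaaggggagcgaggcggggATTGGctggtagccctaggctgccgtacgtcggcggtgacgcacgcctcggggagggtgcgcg
SRSF3: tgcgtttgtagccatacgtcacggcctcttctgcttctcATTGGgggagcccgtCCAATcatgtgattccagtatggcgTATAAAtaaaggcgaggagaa

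Promoter windows (250 bases before and 50 after the start) were found for 48 of the 53 genes, with several starts for some of them. TRA2A, SRSF2, HNRNPA1, HNRNPA1P48 and HNRNPCL3 had no window. The windows of these genes were rich in G and C, with a median of 65.0% GC and 30 CpG, compared with 58.7% and 14 over all windows. The GC box GGGCGG was found on either strand in 35 of the 48 genes (72.9%), against 48.3% of 27305 genes. CCAAT was found in 24 genes (50%), against 39.7%, and CCGGAAG, the core of ETS sites, in 8 genes (16.7%), against 12.2%. An E2F-like site, searched as TTTCCCGC, TTTGGCGC or TTTCGCGC, was found in 5 genes (10.4%), against 3.30%. TATAAA was found in 7 genes (14.6%), against 14.0%, and the palindromic NRF1 consensus in 0 genes, against 1.52%. Among the genes that fell, 9 of the 15 with a window held CCAAT, and among the genes that rose, 4 of 8 did. Each motif was searched on both strands by itself, so matches may overlap. These are matches of letters, no test was made on them, and nothing about the factors follows from them.

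The SR proteins (SRSF1 to SRSF12) were lower on balance, by amounts under 1.5-fold. Of the 11 tested, 4 fell (SRSF3, SRSF7, SRSF4 and SRSF6), 1 rose (SRSF8) and 6 did not pass. The genes that passed are 45.5% of the class, beside 36.9% of all genes tested. None of the 11 was called, beside 24.6% of all genes tested, and none with DESeq2, which called 17.0% of the genes it fitted. In the class, 5 had an unadjusted p under 0.05. The median log2FC was -0.19, and the summed level of the class in si-EIF5A2 libraries was 85.6% of that in NC. SRSF4, SRSF7 and SRSF8 are outside the rule for named genes and were picked once their values had been seen.

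SRSF3, the smallest SR protein, which couples splicing to mRNA export, was measured at 118, 130 and 141 CPM in the NC libraries and at 96.3, 96.7 and 91.4 CPM in the si-EIF5A2 libraries. The si-EIF5A2 libraries all lay under the NC libraries. Its log2FC was -0.45 (SE 0.08, adjusted p = 0.00401). SRSF7, its closest relative, also fell (log2FC -0.44, adjusted p = 0.0104), from 60.4 ± 5.75 to 44.7 ± 3.05 CPM (SD, n = 3 each). SRSF6, the SR protein gene with the highest CPM, had 131, 145 and 154 CPM in NC and 116, 115 and 111 CPM in si-EIF5A2. Again the groups did not overlap, and the log2FC was -0.33 (SE 0.08, adjusted p = 0.0138). SRSF4, a relative of SRSF6 with a long tail, fell with a log2FC of -0.36 (adjusted p = 0.0135). SRSF8, a gene that arose as a copy of SRSF2, went the other way, from 21.8 ± 1.72 to 27.4 ± 1.65 CPM (SD, n = 3 each; log2FC 0.33, adjusted p = 0.0368). The result for SRSF6 rested on 2 libraries, since leaving out NC replicate 2 gave an adjusted p of 0.0515 and leaving out si-EIF5A2 replicate 3 gave 0.0536. SRSF8 stayed under 0.05 only without NC replicate 3, and had an adjusted p between 0.0531 and 0.119 when any other library was left out.

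SRSF1 and SRSF2, the founding members of the family, gave no difference beyond the spread. SRSF1 had 63.8, 86.2 and 103 CPM in NC and 83.7, 60.1 and 64.3 CPM in si-EIF5A2. The ranges overlapped, with NC replicate 1 at the level of si-EIF5A2 replicates 2 and 3, and the log2FC of -0.28 did not pass (SE 0.20, adjusted p = 0.326). SRSF2 had 44.5, 57.9 and 63.3 CPM in NC and 47.3, 52.5 and 54.2 CPM in si-EIF5A2, again with overlap (log2FC -0.11, adjusted p = 0.595). SRSF5, SRSF9, SRSF10 and SRSF11 had log2FC values between -0.19 and 0.05, also short of the threshold. SRSF10 varied most within the groups, 1.73-fold among the NC libraries and 1.88-fold among the si-EIF5A2 libraries. SRSF1, SRSF2 and SRSF9 share bases with genes on the other strand, and whether the counting used strand is not given in the sources used here.

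Among the 6 SR-related and 3′ splice site factors, 4 fell, 0 rose and 2 did not pass, and 2 of them (33.3%) were called. Over all genes tested, 18.9% fell, 18.0% rose and 24.6% were called, and a class of 6 genes is small for such a comparison. None of the 6 rose with DESeq2 either, and the 4 with an unadjusted p under 0.05 are the ones that fell. The class had a median log2FC of -0.43 and a summed level of 74.9% of NC, the lowest of the 5 classes. The sum was 658, 702 and 673 CPM in NC and 423, 558 and 542 CPM in si-EIF5A2. Its lowest library, si-EIF5A2 replicate 1, held the single low value of SRRM2 (37.7 CPM). The sum and the median also leave out the counts of U2AF1L5, a copy of U2AF1. The ranking of the class depends in part on these genes.

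SRRM1, a coactivator that bridges SR proteins and the spliceosome, had 37.3, 39.3 and 34.5 CPM in NC and 17.0, 14.8 and 22.7 CPM in si-EIF5A2. The highest si-EIF5A2 library was well below the lowest NC library, and the mean was 49.1% of NC. The log2FC was -1.03 (SE 0.16, adjusted p = 0.00162). SRRM1 lies on the plus strand of chromosome 1 from 24631716 to 24673267 (GRCh38). TRA2A, which binds GAA-rich exonic enhancers, had 15.9, 14.5 and 22.0 CPM in NC and 12.8, 11.0 and 10.7 CPM in si-EIF5A2. The groups lay close together without overlap, and NC replicate 3 was the highest. The log2FC was -0.60 (SE 0.18, adjusted p = 0.0293). TRA2A spans 23504780 to 23532041 of chromosome 7 (minus strand). TRA2A was no longer called without NC replicate 3 (log2FC -0.41, adjusted p = 0.0735), si-EIF5A2 replicate 2 (-0.57, 0.0851) or si-EIF5A2 replicate 3 (-0.56, 0.0864). TRA2B, its paralog, also fell (log2FC -0.39, adjusted p = 0.0173) and is outside the rule for named genes. Without si-EIF5A2 replicate 2 its adjusted p was 0.0568.

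U2AF2 and U2AF1 form the heterodimer that recognizes the 3′ splice site, U2AF2 at the polypyrimidine tract and U2AF1 at the AG. U2AF2, the most abundant gene of this class by CPM, had 325, 324 and 292 CPM in NC and 230, 255 and 253 CPM in si-EIF5A2. The groups did not overlap, and the log2FC was -0.35 (SE 0.08, adjusted p = 0.00938). U2AF1 had 51.9, 79.7 and 67.8 CPM in NC and 40.1, 57.0 and 56.8 CPM in si-EIF5A2. These ranges overlapped, and the log2FC of -0.37 did not pass (SE 0.20, adjusted p = 0.186). U2AF1L5, a nearly identical copy of U2AF1 on chromosome 21, held 34.6% to 62.7% of the counts of the pair, so the split between the copies is uncertain. Their sum was 112, 122 and 124 CPM in NC and 108, 113 and 114 CPM in si-EIF5A2. The ranges of the sum overlapped between the groups, and with the copy's counts added U2AF1 had a log2FC of -0.10 (adjusted p = 0.339).

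**Figure D3:**
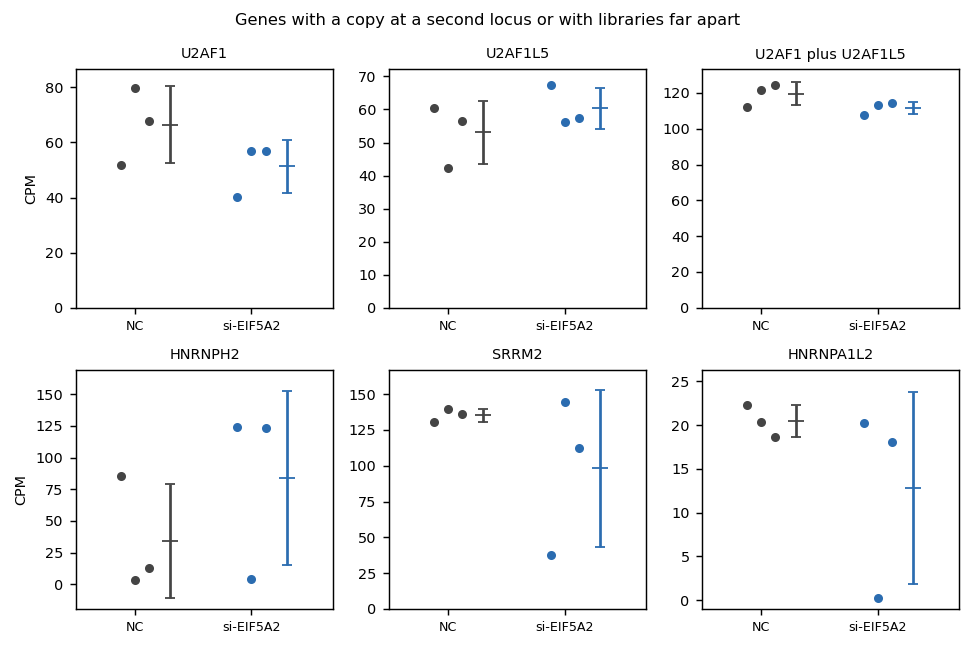
CPM in each library (points; left to right replicates 1 to 3 of NC in gray and si-EIF5A2 in blue), with the mean and SD of each group beside them, for U2AF1, its copy U2AF1L5 and their sum, and for HNRNPH2, SRRM2 and HNRNPA1L2. Adding the copy brings the 3 libraries of a group close together for U2AF1, between 108 and 124 CPM over all 6. In the lower row single libraries stand far from the rest of their group, and the SD of HNRNPH2 in NC reaches below 0.

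SRRM2, a large scaffold protein of nuclear speckles, was low in a single library. It had 130, 139 and 136 CPM in NC and 37.7, 144 and 113 CPM in si-EIF5A2. Only si-EIF5A2 replicate 1 was low, and the log2FC of -0.46 (SE 0.49, adjusted p = 0.532) became -0.08 without that library. SRRM2 shares bases with ELOB and SRRM2-AS1 on the other strand. It was chosen after its values were seen.

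The hnRNP genes make up most of the counts of the whole set, with a sum of 6268 ± 275 CPM in NC, against 5546 ± 144 CPM in si-EIF5A2 (SD, n = 3 each), or 88.5% of NC. Of the 22 tested, 7 fell, 4 rose and 11 did not pass, and 2 were called, HNRNPUL1 and HNRNPA0. The genes called are 9.09% of the class, beside 24.6% of all genes tested, and those that passed are 50%, beside 36.9%. The class had a median log2FC of -0.14.

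HNRNPUL1, which binds RNA and takes part in the handling of broken DNA ends, had 427, 432 and 405 CPM in NC and 218, 224 and 222 CPM in si-EIF5A2. The libraries of each group lay close together and far from those of the other group, with a mean of 52.5% of NC. The log2FC was -0.93 (SE 0.06, adjusted p = 2.95e-05), and it stayed between -0.97 and -0.91 when any 1 library was left out. HNRNPA0, a small relative of HNRNPA1 that binds AU-rich elements, had 159, 142 and 137 CPM in NC and 74.5, 75.04 and 85.1 CPM in si-EIF5A2. All si-EIF5A2 libraries were far below all NC libraries. The log2FC was -0.90 (SE 0.09, adjusted p = 1.93e-04), and leaving out 1 library gave -0.97 to -0.83. HNRNPUL1 lies on the plus strand of chromosome 19 from 41262496 to 41307598, where it shares bases with TGFB1 on the other strand. HNRNPA0 spans 137745651 to 137754376 of chromosome 5 (minus strand).

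HNRNPUL2, a paralog of HNRNPUL1, fell less, from 209 ± 9.64 to 149 ± 1.99 CPM (SD, n = 3 each; log2FC -0.49, adjusted p = 9.12e-04). The readthrough gene HNRNPUL2-BSCL2, which shares its exons, held between 0 and 22.7 CPM. HNRNPD, which promotes the decay of AU-rich mRNAs, fell with a log2FC of -0.49 (adjusted p = 0.00259), HNRNPH3 with -0.38 (adjusted p = 0.0141) and HNRNPR with -0.38 (adjusted p = 0.0438). HNRNPC, which forms tetramers that package nascent RNA and competes with U2AF2 for uridine tracts, had 717, 537 and 605 CPM in NC and 435, 519 and 486 CPM in si-EIF5A2. The groups did not overlap, though NC replicate 2 and si-EIF5A2 replicate 2 were near each other, and the log2FC was -0.37 (SE 0.12, adjusted p = 0.0406). The adjusted p of HNRNPC was 0.0739 to 0.1196 without NC replicate 1, NC replicate 3, si-EIF5A2 replicate 1 or si-EIF5A2 replicate 3. That of HNRNPR was 0.0952 to 0.132 without NC replicate 2, NC replicate 3, si-EIF5A2 replicate 2 or si-EIF5A2 replicate 3.

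The 4 hnRNP genes that rose were HNRNPH1, HNRNPLL, HNRNPDL and HNRNPM. HNRNPH1, which binds runs of G, had 54.9, 61.4 and 64.6 CPM in NC and 98.5, 70.6 and 85.6 CPM in si-EIF5A2. All si-EIF5A2 libraries were above the NC libraries, with si-EIF5A2 replicate 2 the nearest to them. The log2FC was 0.49 (SE 0.13, adjusted p = 0.0188). Without si-EIF5A2 replicate 2 it was 0.61 and the gene was called, and without NC replicate 1, si-EIF5A2 replicate 1 or si-EIF5A2 replicate 3 the adjusted p was 0.0560 to 0.0625. HNRNPLL, a relative of HNRNPL known for controlling CD45 splicing in lymphocytes, rose from 23.7 ± 2.53 to 33.3 ± 1.46 CPM (SD, n = 3 each; log2FC 0.49, adjusted p = 0.00777). HNRNPDL, a paralog of HNRNPD, rose with a log2FC of 0.44 (adjusted p = 0.00352). HNRNPM, a splicing regulator linked to epithelial to mesenchymal transition, rose with 0.33 (adjusted p = 0.0132), and its adjusted p was 0.0567 without si-EIF5A2 replicate 3. HNRNPUL2, HNRNPD, HNRNPH3, HNRNPR, HNRNPLL, HNRNPDL and HNRNPM are outside the rule for named genes and were picked once their values had been seen.

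Some relatives within these families thus went in opposite directions. HNRNPD and HNRNPDL lie 48.1 kb apart on the minus strand of chromosome 4 (82352498 to 82374503 and 82422564 to 82430408, GRCh38). The ratio of HNRNPDL to HNRNPD counts was 0.394, 0.369 and 0.429 in NC and 0.831, 0.695 and 0.751 in si-EIF5A2. The ratio was higher in each si-EIF5A2 library than in any NC library. The ratio of HNRNPH1 to HNRNPH3 was 0.453, 0.465 and 0.441 in NC and 0.945, 0.738 and 0.792 in si-EIF5A2, also without overlap. These pairs were picked for their difference, so the ratios are a description and were not tested.

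None of the 3 hnRNP genes most abundant in NC after scaling to transcript length passed the test, and all 3 overlapped between the groups. By mean CPM in NC without that scaling, HNRNPC (620 CPM), which fell, was above HNRNPA2B1 (598 CPM), with overlapping ranges. Per kilobase of the longest annotated coding transcript, HNRNPA1 had 279 ± 20.8 and HNRNPK 260 ± 17.9 CPM per kb in NC (SD, n = 3 each), with overlapping ranges. HNRNPA2B1 (163 ± 21.5), HNRNPC (138 ± 20.2), HNRNPF (128 ± 6.08), HNRNPUL1 (119 ± 4.05) and U2AF2 (104 ± 6.21) followed in CPM per kb. Of these neighbors, HNRNPA2B1 and HNRNPC, and HNRNPC and HNRNPF, had overlapping ranges. Of these 7 genes HNRNPUL1 alone was called. In si-EIF5A2 libraries HNRNPUL1 was at 62.2 ± 0.746 CPM per kb, below U2AF2 at 81.5 ± 4.64.

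HNRNPA1, the prototype of exon silencing factors, had 1086, 1121 and 1248 CPM in NC and 1123, 998 and 1024 CPM in si-EIF5A2. The ranges overlapped, and the log2FC was -0.14 (SE 0.08, adjusted p = 0.240). HNRNPA2B1, which shares most of its RNA-binding region with HNRNPA1, had 517, 604 and 674 CPM in NC and 509, 542 and 583 CPM in si-EIF5A2, again with overlap (log2FC -0.13, adjusted p = 0.374). HNRNPK, which binds runs of C through KH domains, had 711, 769 and 816 CPM in NC and 744, 688 and 674 CPM in si-EIF5A2, with overlap (log2FC -0.12, adjusted p = 0.261). Pseudogenes and copies of HNRNPA1, HNRNPC, HNRNPK, HNRNPL and HNRNPA3 outside the 53 genes held between 2.12% and 5.05% of the counts of each family. Adding these copies to the parent gene changed no call. HNRNPA1L2 and HNRNPA1P48 are among the 53 genes, so they were left out of the HNRNPA1 share and were not added to HNRNPA1. They averaged 20.4 and 22.2 CPM over the NC libraries, beside 1151 CPM for HNRNPA1. HNRNPAB and HNRNPL did not overlap between the groups either, but their log2FC values of -0.18 and 0.07 did not pass (adjusted p = 0.0602 and 0.406).

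HNRNPH2 and HNRNPA1L2 had the largest fitted changes among the hnRNP genes that did not pass, and in both the libraries of 1 group were far apart. HNRNPH2, a paralog of HNRNPH1 on the X chromosome, had 85.8, 3.36 and 13.0 CPM in NC and 124, 4.27 and 123 CPM in si-EIF5A2. Each group held high and low libraries, and the log2FC of 1.30 had an SE of 1.61 (adjusted p = 0.594). The readthrough gene RPL36A-HNRNPH2 shares its exons, and adding its counts left 18.1 to 175 CPM per library. HNRNPA1L2, a retrocopy of HNRNPA1, had 22.3, 20.3 and 18.7 CPM in NC and 20.2, 0.211 and 18.1 CPM in si-EIF5A2. Only si-EIF5A2 replicate 2 was low, and the log2FC of -0.67 (adjusted p = 0.726) became -0.09 without it. HNRNPH2 and HNRNPA1L2 were picked once their values had been seen, and the source of these swings was not tested.

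The PTB genes were the class without a gene that passed, and all 3 had groups that did not overlap. Over all genes tested, 36.9% passed and 51.2% had groups that did not overlap. PTBP1, the most abundant, which represses exons flanked by pyrimidine tracts, had 148, 167 and 167 CPM in NC and 173, 184 and 195 CPM in si-EIF5A2. The si-EIF5A2 libraries were all higher, by a log2FC of 0.20 (SE 0.08, adjusted p = 0.0966). PTBP2, its neuronal paralog, had 11.2, 15.9 and 15.7 CPM in NC and 18.8, 22.9 and 18.2 CPM in si-EIF5A2, at 1.19 CPM per kb in NC the lowest level per kilobase among the 48 genes tested. Its log2FC was 0.49 (SE 0.17, adjusted p = 0.0536). PTBP3 had 90.8, 83.3 and 85.9 CPM in NC and 41.7, 66.0 and 72.9 CPM in si-EIF5A2. Here the si-EIF5A2 libraries were all lower and spread widely, with a log2FC of -0.53 (SE 0.20, adjusted p = 0.0776). PTBP3 was called without si-EIF5A2 replicate 3 (log2FC -0.69, adjusted p = 0.0354), and without si-EIF5A2 replicate 1 it had -0.33 (adjusted p = 0.0351). All 3 had an unadjusted p under 0.05, and with DESeq2 PTBP2 and PTBP3 had an adjusted p under 0.05 (0.0381 and 0.0197). The summed level of the class was 101% of NC.

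The kinases that phosphorylate SR proteins moved apart. Of the 6 genes, CLK3 fell and was called, SRPK1, SRPK2 and CLK4 rose, and CLK1 and CLK2 did not pass. The share called was 16.7%, beside 24.6% of all genes tested, and the share that passed was 66.7%, beside 36.9%. The median log2FC of the class was 0.30, while the summed level was 103% of NC.

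CLK3, a dual-specificity kinase of nuclear speckles, had the largest fall of all 48 genes. It had 53.6, 52.8 and 47.9 CPM in NC and 20.5, 23.7 and 20.7 CPM in si-EIF5A2. The groups were widely separated, with a mean of 42.1% of NC. The log2FC was -1.25 (SE 0.10, adjusted p = 5.99e-05), and it stayed between -1.32 and -1.22 when any 1 library was left out. CLK3 lies on chromosome 15 from 74598500 to 74645414 (GRCh38, plus strand) and shares bases with EDC3 on the other strand.

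SRPK1, the kinase gene with the highest CPM, had 72.9, 73.7 and 83.4 CPM in NC and 116, 107 and 101 CPM in si-EIF5A2. All si-EIF5A2 libraries were above all NC libraries, and the log2FC was 0.50 (SE 0.09, adjusted p = 0.00320). SRPK2 rose by nearly the same amount, from 13.3 ± 0.922 to 18.7 ± 0.296 CPM (SD, n = 3 each; log2FC 0.49, adjusted p = 0.00797). CLK4 rose from 5.52 ± 0.527 to 7.70 ± 0.383 CPM (SD, n = 3 each; log2FC 0.48, adjusted p = 0.0316), and its adjusted p stayed under 0.05 only without NC replicate 1, with 0.0600 to 0.0983 when any other library was left out. CLK1, whose own transcript is often kept partly unspliced, had 27.8, 33.4 and 34.0 CPM in NC and 35.2, 32.6 and 35.2 CPM in si-EIF5A2. The ranges overlapped (log2FC 0.11, SE 0.11, adjusted p = 0.460). CLK2 had a log2FC of -0.38 (adjusted p = 0.0822). SRPK2, CLK4 and CLK2 are outside the rule for named genes and were picked once their values had been seen. The ratio of CLK4 to CLK3 counts, likewise picked for its difference, was 0.113, 0.103 and 0.105 in NC and 0.359, 0.321 and 0.392 in si-EIF5A2.

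**Figure D4:**
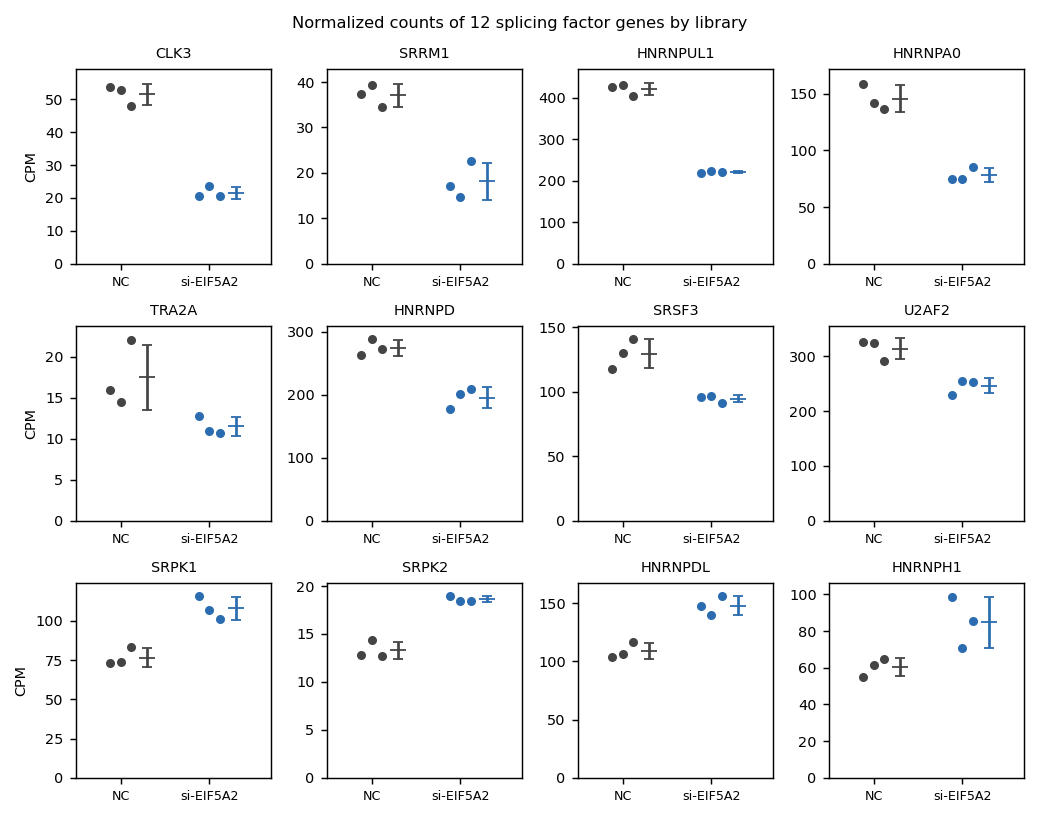
CPM in each library (points; left to right replicates 1 to 3 of NC in gray and si-EIF5A2 in blue) of 12 splicing factor genes, with the mean and SD of each group (n = 3) beside the points and each y axis starting at 0. The first 8 genes are lower and the last 4 (SRPK1, SRPK2, HNRNPDL, HNRNPH1) higher in all si-EIF5A2 libraries. CLK3 and HNRNPUL1 show the widest gaps relative to their spread, and TRA2A and HNRNPH1 the narrowest.

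The rest of the splicing machinery gave a setting for these values. Of 149 genes in 3 lists, 143 were tested and 19 (13.3%) were called, 13 lower and 6 higher, beside 24.6% of all genes tested. A total of 52 (36.4%) had an adjusted p under 0.05, close to the 36.9% of all genes. Of these 31 fell and 21 rose, and the median log2FC was -0.06. In the core spliceosome, 11 of 75 genes were called, 8 lower and 3 higher. The largest falls were in SF3A3 (-1.61) and SF3A1 (-1.01), subunits of the SF3A part of U2 snRNP, and the largest rises in PRPF3 (0.97), a protein of the U4/U6 particle, and PLRG1 (0.66), all as log2FC values. SF3A3 had 163, 182 and 192 CPM in NC and 59.8, 59.7 and 56.1 CPM in si-EIF5A2, without overlap. Among other splicing regulators, 7 of 60 were called, 5 lower and 2 higher, with PCBP1 (-0.95) and BCLAF1 (-0.87) lowest and FUBP1 (0.71) highest in log2FC among genes of at least 10 CPM. Of 8 further kinase, import and phosphatase genes for arginine-serine domains, only PPP1R8, a nuclear regulator of protein phosphatase 1, was called, with a log2FC of 1.02.

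The table gives 1 value per gene, so changes in splice forms, including the unproductive forms through which many SR protein and hnRNP genes limit their own expression, could not be seen. Protein levels were not measured here.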

How the data were processed

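RNA of SKOV3 cells was measured by RNA-seq in 3 NC and 3 si-EIF5A2 libraries, grouped by the sample labels, with 0 columns left without a sample. The authors made paired-end mRNA libraries and ran StringTie and ballgown on the reads. The authors deposited 1 estimated count per gene and library, as whole numbers that were neither normalized nor pooled. The aligner and genome build are not given in the methods. The submitters' processing notes name Bowtie 0.12.2 and the mouse builds mm8 and mm9, whereas the gene identifiers are human, so no build was taken from them. Symbols, positions, overlaps and transcript lengths came from GENCODE release 29 (GRCh38), which held 58552 of the 58825 identifiers.

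The test had been planned for counts, and edgeR 4.0.16 (R 4.3.3) was run on the estimated counts, which needed no rounding: filterByExpr, TMM (factors 0.985 to 1.01), robust dispersion, quasi-likelihood fits with the condition as the only term. P-values of 16208 genes were adjusted by Benjamini-Hochberg, and the common biological coefficient of variation came to 0.261. Genes were called above 1.5-fold at an adjusted p under 0.05. To obtain a standard error, the log2 fold change was divided by the square root of F. CPM used TMM library sizes. A value of 0 allows up to 3 fragments, which covers counting error only.

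Genes were named by a rule. It took every gene called, the highest in mean CPM of each role class and 13 genes set by name. It also took genes whose call changes when 1 library is left out. Of the other lists, it took the largest 2 called rises and 2 called falls of at least 10 CPM on average. Other members named in the Results are outside this rule, and many are marked there as picked once their values had been seen. The members and lists were chosen with earlier results of these data known. The replicate numbers did not pair the libraries. DESeq2 1.42.0 and the other alternatives are given in the closing section. The main steps were tested on simulated counts. A leukocyte marker is not reported here.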

Additional observations from a re-analysis of the deposited data

How the results depend on the processing

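The number of splicing factor genes called was 5 with other normalizations (RLE, upper quartile, library size only), other filters on low counts, DESeq2, counts divided by their step, and the counts of copies or readthrough genes added. The copies added did not include HNRNPA1L2 and HNRNPA1P48, and the readthrough genes were added after the counts of HNRNPH2 had been seen. It was 4 with the replicate number as a block, where TRA2A was at -0.58 on the log2 scale (adjusted p = 0.0565) and U2AF1 passed with -0.37 (adjusted p = 0.0347). That U2AF1 value leaves out the counts of its copy U2AF1L5, and the sum of both genes overlapped between the groups. The replicate numbers give no pairing, since libraries of the same number deviated together with r of -0.02, 0.01 and 0.00. With the limits stated in the methods (fold over 2, p under 0.05 before adjustment), 2 genes were called, both lower (CLK3 and SRRM1), and 5 of the other splicing genes, beside 14.6% of all genes. With no limit on the fold change, 24 were called, 16 lower and 8 higher, and 52 of the other splicing genes, beside 36.9% of all genes. DESeq2 called 17.0% of the 25627 genes it fitted. Leaving out 1 library gave 4 to 5 genes called, 4 to 5 of them lower and 0 to 1 higher (HNRNPH1 without si-EIF5A2 replicate 2), 17 to 22 of the other splicing genes, and a median log2 fold change of the members between -0.25 and -0.13. Of the 24 genes that changed, 15 kept an adjusted p under 0.05 in every such fit and 9 lost it in at least 1. Over 37 named genes and all alternatives, 638 of 666 values kept their direction and whether the gene was called, and 0 reversed. A call was lost in 7 values, 3 of them by the limits of the methods, and gained in 21, of which 19 came from dropping the fold limit. In the 16 alternatives that refitted the data, an adjusted p under 0.05 was lost in 37 of 592 values, in 9 genes, and gained in 8. Among the 48 genes tested, the lowest mean was 6.61 CPM (CLK4, not scaled to length), against 0.236 CPM for 3 fragments in the shallowest library.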
